A study of Mus musculus with 18 samples.

Results

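The MAP kinase phosphatases described here are 7 dual-specificity phosphatase genes, Dusp1, Dusp2, Dusp3, Dusp4, Dusp5, Dusp6 and Dusp16, taken by name. They were chosen with earlier results of these data known. All 7 symbols were found among the 11243 protein-coding genes of the count table. MAP kinases (ERK, JNK and p38) are switched on when an upstream kinase phosphorylates a threonine and a tyrosine in their activation loop, and dual-specificity phosphatases remove both phosphates. In macrophages, lipopolysaccharide (LPS) binds Toll-like receptor 4 and switches on all 3 MAP kinase branches, and several of these phosphatase genes are themselves transcribed in response, which makes them negative feedback genes. Dusp1, Dusp2, Dusp4 and Dusp5 encode nuclear enzymes, Dusp6 a cytoplasmic enzyme that prefers ERK, Dusp16 an enzyme that acts on JNK and p38, and Dusp3 a small atypical enzyme without the kinase-binding domain of the others.

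The genes were measured in RAW264.7 cells, a mouse macrophage line, that received vehicle (DMSO, called control here), LPS at 500 ng/mL during 6 h, or the same LPS exposure begun 15 min after 100 nM torin1, an inhibitor of the kinase mTOR. The labels give no time for the vehicle, and all torin1-treated cells analysed here also received LPS. From each lysate, total mRNA and mRNA associated with heavy polysomes, the transcripts that carry many ribosomes, were sequenced in 3 experiments, which gave 18 libraries from 9 lysates. All cells were of 1 line, so replicates are independent cultures and not animals.

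The libraries held 27800983 to 47725557 counts. Of 10 macrophage markers, 9 were in the table, among them Lyz2 at 4756 to 13430 CPM, the count of a gene relative to the total of its library, and Csf1r at 840 to 4415 CPM, and the 9 together summed to 11393 to 14970 CPM in total mRNA and 14488 to 21785 CPM in polysome-associated mRNA. Of the 9, 5 rose and 1 fell with LPS in each RNA type, with a median of 0.45 (log2) in total mRNA. Fcgr1, which encodes an Fc receptor, rose by 2.44 (SE 0.54, edgeR adjusted p = 0.0043) and Csf1r fell by 0.93 (SE 0.11, adjusted p = 9.4e-05) in total mRNA. Of 14 markers of other cell types, 12 were not in the table. The other two, Cdh5 and S100a8, summed to 0.548 to 0.819 CPM in control total mRNA, 3.07 to 6.69 CPM with LPS and 1.32 to 4.33 CPM with LPS and torin1, and S100a8 rose by 4.24 (log2, SE 0.58, edgeR adjusted p = 0.00020) with LPS in total mRNA. The part of either in the results was not tested. Values are given as CPM on libraries scaled with TMM, which centres the fold changes of most genes. Scaling by library totals alone moved the median gene of LPS against control by −0.37 (log2) in total mRNA and turned the split of genes called from 3616 higher and 3855 lower into 1722 higher and 6966 lower. In bulk RNA, fewer cells that express a gene and less of its mRNA per cell cannot be told apart.

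Of the 7 genes, 6 have an entry in the RefSeq promoter windows (build GRCm38.p6, 250 bases before to 50 after each start site), and Dusp4 has none. The stretches before the start site are shown for Dusp5 (chr19:53528895-53529108, plus strand), Dusp1 (chr17:26508520-26508722, minus strand), Dusp2 (chr2:127335909-127336158, plus strand) and Dusp16 (chr6:134792629-134792878, minus strand). They were picked because Dusp2 and Dusp5 moved together under torin1 while Dusp16 stayed high and Dusp1 lay between them. Dusp6 also lay between them and is not shown. Each stretch ends before the first annotated exon base, so that 36 bases before the RefSeq start of Dusp5 and 47 before that of Dusp1 are left out. Capitals mark matches to the motifs searched on both strands: the cyclic AMP response element TGACGTCA, the CArG box (the serum response factor motif), TCACGTG (an E-box), TGANTCA (AP-1), the kB motif of NF-kB and TATAAA.
Dusp5: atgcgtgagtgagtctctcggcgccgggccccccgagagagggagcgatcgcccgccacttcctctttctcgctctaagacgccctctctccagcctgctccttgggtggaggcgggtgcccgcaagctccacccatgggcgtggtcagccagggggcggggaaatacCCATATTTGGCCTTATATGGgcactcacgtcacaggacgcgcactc
Dusp1: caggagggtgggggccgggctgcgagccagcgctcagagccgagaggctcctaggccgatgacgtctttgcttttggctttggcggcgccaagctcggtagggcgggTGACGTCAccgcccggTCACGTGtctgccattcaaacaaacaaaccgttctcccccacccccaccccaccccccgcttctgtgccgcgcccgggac
Dusp2: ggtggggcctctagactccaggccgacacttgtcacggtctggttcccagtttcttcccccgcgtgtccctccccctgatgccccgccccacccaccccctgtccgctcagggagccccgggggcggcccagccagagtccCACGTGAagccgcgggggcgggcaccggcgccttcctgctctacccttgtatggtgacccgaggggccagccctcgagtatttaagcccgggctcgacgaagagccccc
Dusp16: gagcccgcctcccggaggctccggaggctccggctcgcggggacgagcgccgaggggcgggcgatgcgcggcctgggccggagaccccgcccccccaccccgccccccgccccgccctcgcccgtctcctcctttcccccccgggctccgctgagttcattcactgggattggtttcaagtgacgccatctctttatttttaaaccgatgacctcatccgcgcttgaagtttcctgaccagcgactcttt

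The Dusp5 stretch held 2 CArG boxes in direct succession, CCATATTTGG and CCTTATATGG, at -82 to -73 and -72 to -63 from the RefSeq start. A CArG box was found in 1.63% of the 32851 mouse promoter windows. Dusp1 held TGACGTCA at -143 to -136, which was found in 1.79% of the windows, and TCACGTG at -127 to -121. Dusp2 held the same E-box letters on the other strand, CACGTGA, at -109 to -103, and 3.77% of windows held TCACGTG on either strand. No match to these motifs was found in the windows of Dusp3, Dusp6 and Dusp16, and none of the 6 windows held TGANTCA, the kB motif or TATAAA, which occurred in 7.81%, 4.51% and 13.6% of windows. These matches describe letters only.

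In the 3′ UTR of the principal GENCODE transcript, Dusp1 held 2 copies of TTATTTATT, the nonamer of AU-rich elements that mark short-lived mRNAs, in 693 bases. None of the other 6 genes held it, and 7.14% of the 10741 table genes with an annotated 3′ UTR did. The pentamer ATTTA occurred 4 times in Dusp1, Dusp2 and Dusp3, 3 times in Dusp16, 2 times in Dusp4 and 1 time in Dusp5 and Dusp6, against a median of 1 over all genes. These counts are not scaled by length. The 3′ UTR was 584 bases in Dusp2, 3594 in Dusp3, 2414 in Dusp16 and 1112 to 1192 in Dusp4, Dusp5 and Dusp6. Its median over all genes was 951 bases. The coding length was 555 bases in Dusp3 and 954 to 1980 bases in the other 6 genes.

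LPS raised the mRNA of 6 of the 7 phosphatases in both RNA types, and Dusp3 was the exception. The rise was largest for Dusp5, at 18.4-fold in total mRNA, and ranged from 2.37-fold for Dusp4 to 7.76-fold for Dusp2 in the other 5. In edgeR's quasi-likelihood test at the study's false discovery rate of 0.25, 32.2% (total) and 26.4% (polysome-associated) of all genes passed as higher. For all 6 genes the 3 LPS libraries lay above the 3 control libraries in both RNA types, which was so for 25.6% (total) and 22.1% (polysome-associated) of all genes. The median log2 difference of the 7 genes was 2.56 in total mRNA, beside −0.02 over all genes tested.

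Among the nuclear enzymes, Dusp5, which acts on ERK alone, stood at 12.4, 10.05 and 7.36 CPM in control total mRNA of experiments 1, 2 and 3, at 156, 198 and 194 CPM with LPS, and at 42.0, 44.7 and 34.0 CPM with LPS and torin1. The 3 treatments did not overlap, and the levels under LPS and torin1 lay between the other two. The LPS difference was 4.20 (log2, SE 0.20, edgeR adjusted p = 3.9e-07) in total and 4.18 (SE 0.32, adjusted p = 1.0e-05) in polysome-associated mRNA. Dusp5 lies at chr19:53529109-53542431 on the plus strand (GRCm38, as all gene positions here), and an antisense gene overlaps its start. The kit kept strand, but the strand setting of the counting is not given in the sources used here.

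Dusp2, an inducible phosphatase of immune cells at chr2:127336159-127338376 (plus strand), stood at 12.5, 5.84 and 5.89 CPM in control total mRNA and at 78.9, 55.1 and 53.4 CPM with LPS. With LPS and torin1 it stood at 14.3, 9.53 and 5.97 CPM. The LPS libraries were thus apart from all others, while the control and torin1 libraries overlapped. The LPS difference was 2.96 (log2, SE 0.37, edgeR adjusted p = 0.00011) in total and 3.06 (SE 0.45, adjusted p = 0.00057) in polysome-associated mRNA.

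Dusp1, the best known of these enzymes in macrophages, where it restrains p38 and JNK, lies at chr17:26505590-26562128 (minus strand). A long annotated transcript of it reaches Ergic1 on the other strand. Its control total mRNA stood at 36.8, 19.4 and 14.2 CPM, its LPS total mRNA at 267, 87.5 and 50.1 CPM, and its total mRNA under LPS and torin1 at 106.8, 67.4 and 37.9 CPM in experiments 1, 2 and 3. Every treatment thus ranged widely, with experiment 1 highest and experiment 3 lowest. The LPS difference was 2.52 (log2, SE 0.62, edgeR adjusted p = 0.0069) in total and 2.50 (SE 0.68, adjusted p = 0.017) in polysome-associated mRNA, and within the experiments it was 2.86, 2.17 and 1.82 in total mRNA.

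Dusp4, which lies at chr8:34807297-34819894 (plus strand) and acts on ERK and JNK, had the smallest LPS rise of the nuclear enzymes. Its total mRNA stood at 61.0, 76.4 and 43.3 CPM in control, at 112.6, 210 and 105.1 CPM with LPS, and at 206, 263 and 198 CPM with LPS and torin1. The last 2 groups overlapped through the LPS library of experiment 2. The LPS difference was 1.24 (log2, SE 0.28, edgeR adjusted p = 0.0044) in total and 1.11 (SE 0.30, adjusted p = 0.017) in polysome-associated mRNA.

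Dusp6, the cytoplasmic ERK phosphatase at chr10:99263231-99267489 (plus strand), stood at 5.66, 12.7 and 7.36 CPM in control total mRNA. It stood at 20.4, 66.5 and 65.8 CPM with LPS and at 14.1, 45.0 and 33.6 CPM with LPS and torin1. Here experiment 1 was the lowest library of every treatment. The LPS difference was 2.56 (log2, SE 0.52, edgeR adjusted p = 0.0026) in total and 2.34 (SE 0.51, adjusted p = 0.0053) in polysome-associated mRNA.

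Dusp16, the JNK and p38 phosphatase at chr6:134715468-134792625 (minus strand), was the most even of the induced genes. Its total mRNA stood at 28.1, 34.9 and 27.7 CPM in control, at 256, 184 and 192 CPM with LPS, and at 188, 179 and 161 CPM with LPS and torin1. Its LPS difference was 2.80 (log2, SE 0.16, edgeR adjusted p = 9.1e-07) in total and 2.91 (SE 0.22, adjusted p = 1.0e-05) in polysome-associated mRNA.

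Dusp3, the atypical enzyme at chr11:101971143-101987013 (minus strand), did not pass the test for LPS. It stood at 137, 164 and 116.6 CPM in control total mRNA, at 116.7, 139 and 131.5 CPM with LPS, and at 212, 216 and 218 CPM with LPS and torin1. Control and LPS overlapped and the torin1 libraries lay above both. The LPS difference was −0.11 (log2, SE 0.13, edgeR adjusted p = 0.53) in total and −0.05 (SE 0.18, adjusted p = 0.86) in polysome-associated mRNA. Scaled by library totals without TMM, which moved the median of all genes as given above, it was −0.47 (adjusted p = 0.011) and −0.40 (adjusted p = 0.096), both past the threshold as lower.

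**Figure D1:**
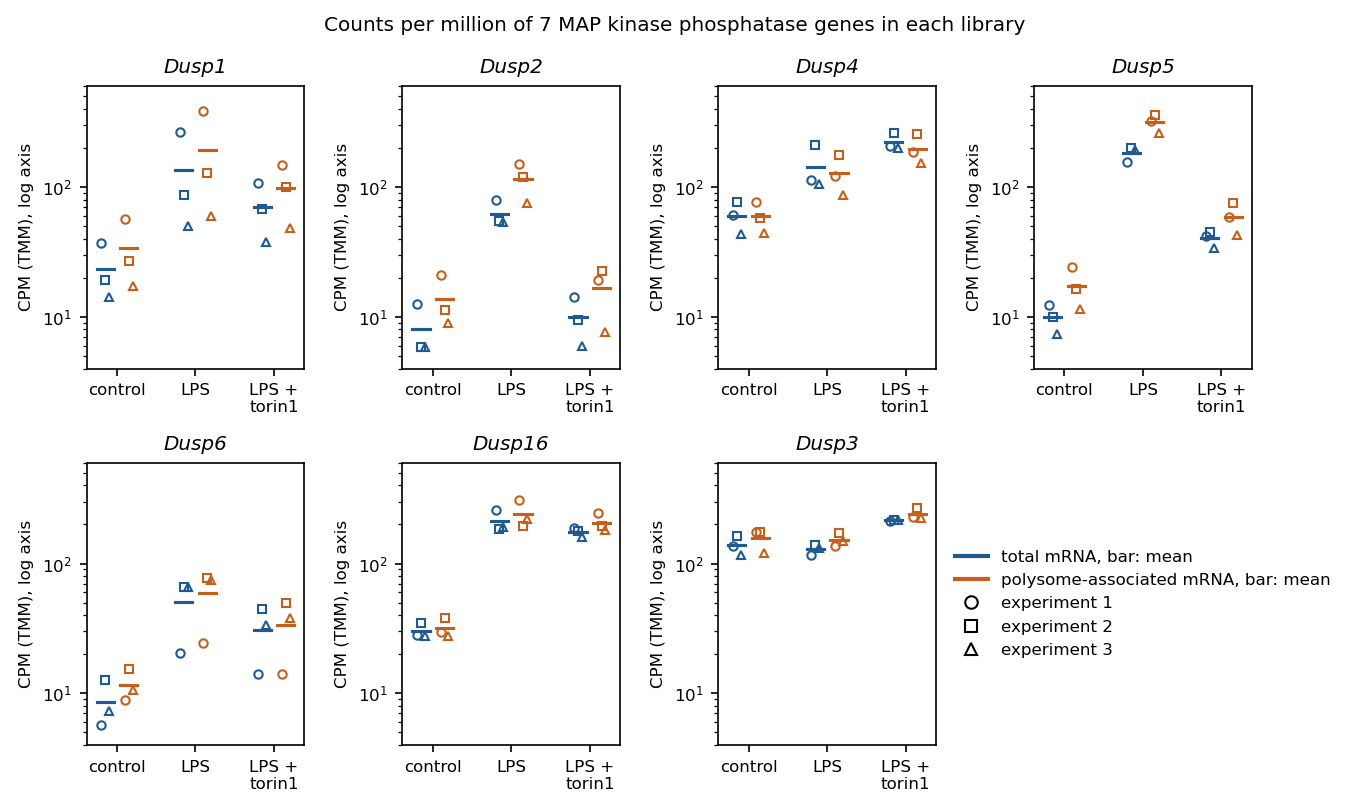
CPM of each gene (log axis) in each of the 18 libraries by treatment, with total mRNA in blue, polysome-associated mRNA in orange, symbols for the 3 experiments and bars for group means. Dusp5 rises from 9.92 to 183 CPM in mean total mRNA and lies at 40.2 CPM with torin1, while Dusp3 changes from 139 to 129.2 CPM and lies at 215 CPM with torin1.

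Per kilobase of annotated exon, which allows a rough comparison of levels between genes, the order of the phosphatases differed between the treatments. The length is the union of annotated exons, which for Dusp1 is 3311 bases beside 1990 in its principal transcript. In control total mRNA, Dusp3 stood highest at 29.7 ± 5.1 CPM per kb (SD, n = 3), followed by Dusp4 at 22.0 ± 6.0, neighbours whose spreads touch. The other 5 genes lay between 2.74 and 7.08 CPM per kb and did not differ beyond their spread. With LPS, Dusp5 stood highest at 73.9 ± 9.4 CPM per kb, Dusp4 followed at 52.0 ± 21.4 and Dusp3 was the fifth at 27.6 ± 2.5. With LPS and torin1, Dusp4 stood highest at 81.1 ± 12.9 CPM per kb, Dusp3 followed at 46.0 ± 0.65, Dusp5 had 16.3 ± 2.3, and Dusp2 stood lowest at 4.96 ± 2.1.

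The phosphatases parted when torin1 was given before LPS. Against LPS alone, Dusp2 and Dusp5 fell several-fold and Dusp3 and Dusp4 rose. Dusp16 was slightly lower in both RNA types, by −0.26 (log2, SE 0.15) in total and −0.19 (SE 0.20) in polysome-associated mRNA. It passed in total mRNA and not in polysome-associated mRNA. Dusp1 and Dusp6 did not pass in the fit without a term for the experiment number. In total mRNA 2 of the 7 genes rose and 3 fell, while 27.3% of all genes passed as higher and 26.4% as lower. In polysome-associated mRNA 2 rose and 2 fell, beside 20.3% of all genes higher and 18.2% lower. Of the 7 genes, 2 had groups that did not overlap with the torin1 libraries lower, Dusp2 and Dusp5 in both RNA types, as had 19.8% of all genes in total mRNA, with 16.8% in polysome-associated mRNA. This comparison and that of LPS with control share the LPS libraries, so the values of both are given side by side and no relation between them was computed.

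Dusp2 fell by 2.65 on the log2 scale (SE 0.36, edgeR adjusted p = 0.00073), 6.28-fold, in total mRNA and by 2.77 (SE 0.45, adjusted p = 0.0036) in polysome-associated mRNA. Its difference under LPS had been 2.96 and 3.06. Dusp5 fell by 2.18 on the log2 scale (SE 0.19, edgeR adjusted p = 9.2e-05), 4.55-fold, in total mRNA and by 2.39 (SE 0.29, adjusted p = 0.0011) in polysome-associated mRNA, after an LPS difference of 4.20 and 4.18. In polysome-associated mRNA, Dusp2 went from 151, 119.5 and 74.8 CPM with LPS to 19.3, 22.7 and 7.67 CPM with torin1, and Dusp5 from 325, 357 and 261 CPM to 59.2, 74.8 and 42.5 CPM. Both genes were lower in all 3 experiments and both RNA types.

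Dusp3 rose by 0.74 (log2, SE 0.13, edgeR adjusted p = 0.0026), 1.67-fold, in total mRNA and by 0.69 (SE 0.18, adjusted p = 0.032) in polysome-associated mRNA. Dusp4 rose by 0.64 (log2, SE 0.28, adjusted p = 0.11) and 0.65 (SE 0.30, adjusted p = 0.18), and it was higher in all 3 experiments in both RNA types. The Dusp4 call was lost without experiment 1 (adjusted p = 0.34 in total and 0.45 in polysome-associated mRNA) and without experiment 3 (0.29 and 0.36).

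Dusp16 fell by 0.26 on the log2 scale (SE 0.15, edgeR adjusted p = 0.21) in total mRNA, to a mean of 176 CPM from 211 CPM. Without experiment 1 the adjusted p was 0.48, without experiment 3 it was 0.43, and with library totals it was 0.35. In polysome-associated mRNA the difference was −0.19 (SE 0.20, adjusted p = 0.57), and in experiment 2 it was −0.01.

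Dusp1 differed by −0.93 (log2, SE 0.58, edgeR adjusted p = 0.26) in total and −0.93 (SE 0.65, adjusted p = 0.37) in polysome-associated mRNA. Dusp6 differed by −0.72 (SE 0.49, adjusted p = 0.30) and −0.77 (SE 0.49, adjusted p = 0.32). Both genes were nevertheless lower under torin1 within every experiment. Dusp1 differed by −1.32, −0.38 and −0.40 within experiments 1, 2 and 3 in total mRNA, and Dusp6 by −0.53, −0.56 and −0.97. With a replicate block on the experiment number, 31.4% (total) and 24.3% (polysome-associated) of all genes passed as lower. Both phosphatases passed in that edgeR fit: Dusp1 at −0.72 (SE 0.19, adjusted p = 0.016) in total and −0.67 (SE 0.22, adjusted p = 0.060) in polysome-associated mRNA, and Dusp6 at −0.71 (SE 0.19, adjusted p = 0.017) and −0.79 (SE 0.25, adjusted p = 0.053).

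**Figure D2:**
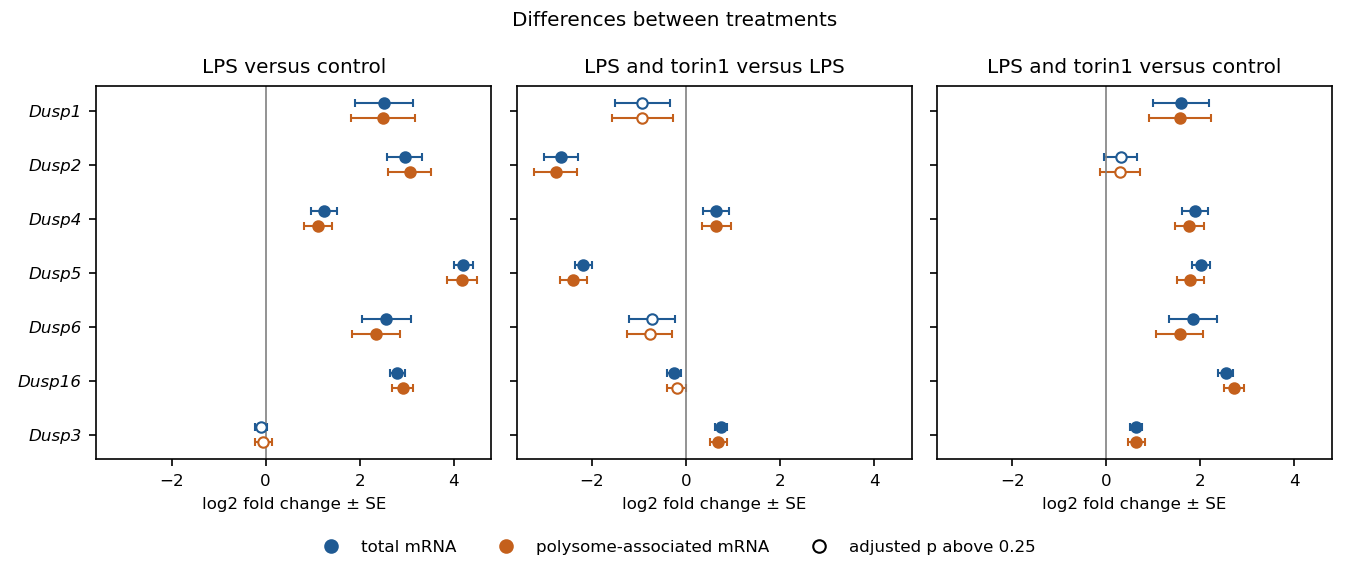
Log2 fold change (x axis) with its standard error for each gene in the 3 treatment comparisons, in total (blue) and polysome-associated mRNA (orange), with open circles for an adjusted p above 0.25. Under LPS all but Dusp3 lie to the right of 0, and under torin1 Dusp2 and Dusp5 lie beyond −2 while Dusp3 and Dusp4 lie to the right of 0.

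Compared with control cells, cells that received LPS and torin1 had higher levels of 6 phosphatases in both RNA types, Dusp3 among them, and Dusp2 was the one that did not pass. Of all genes, 33.1% passed as higher in total and 28.5% in polysome-associated mRNA. The differences in total mRNA were 2.54 (log2, SE 0.16) for Dusp16, 2.02 (SE 0.19) for Dusp5, 1.88 (SE 0.28) for Dusp4, 1.84 (SE 0.51) for Dusp6, 1.59 (SE 0.60) for Dusp1 and 0.63 (SE 0.13) for Dusp3. Their adjusted p in edgeR lay between 1.1e-06 for Dusp16 and 0.049 for Dusp1. Dusp2 differed by 0.31 (SE 0.36, adjusted p = 0.52) in total and 0.29 (SE 0.43, adjusted p = 0.63) in polysome-associated mRNA, and with the replicate block its total mRNA passed at 0.31 (SE 0.16, adjusted p = 0.14), as did 36.6% of all genes as higher.

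Polysome-associated and total mRNA of one lysate were then compared, which gives the relative association of an mRNA with heavy polysomes. In the fit that does not use the pairing of lysates, Dusp2 and Dusp5 were enriched in polysome-associated mRNA in all 3 treatments. There Dusp3 passed in LPS only, and the other 4 genes did not pass. Of all genes, 36.3% passed as higher in control, 34.1% in LPS and 27.8% in LPS and torin1, beside 2, 3 and 2 of the 7. Dusp2 exceeded its total mRNA by 0.77 (log2, SE 0.43, edgeR adjusted p = 0.15), 0.88 (SE 0.42, adjusted p = 0.10) and 0.73 (SE 0.43, adjusted p = 0.21), and lost the call in all 3 without experiment 2 (adjusted p = 0.34, 0.30 and 0.67). Dusp5 exceeded it by 0.80 (SE 0.26, adjusted p = 0.018), 0.78 (SE 0.25, adjusted p = 0.019) and 0.55 (SE 0.25, adjusted p = 0.11), and lost the call in LPS and torin1 without experiment 2 (adjusted p = 0.41). Dusp3 in LPS stood at 0.23 (SE 0.16, adjusted p = 0.25), a call lost in 7 of 9 alternatives.

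Both RNA types came from the same lysates. With the lysate as a replicate block, 5 of the 7 genes passed as higher in control, 6 in LPS, and 5 as higher and 1 as lower in LPS and torin1. Of all genes, the same fit called 41.4% as higher in control, 40.5% in LPS, and 34.9% as higher and 35.6% as lower in LPS and torin1. Dusp1 then exceeded its total mRNA by 0.47 (SE 0.10, edgeR adjusted p = 0.0013) in control, 0.45 (SE 0.10, adjusted p = 0.0016) in LPS and 0.47 (SE 0.10, adjusted p = 0.0017) in LPS and torin1. Dusp3 passed at 0.17 (SE 0.10, edgeR adjusted p = 0.15) in control and 0.23 (SE 0.10, adjusted p = 0.056) in LPS. It passed at 0.15 (SE 0.10, adjusted p = 0.21) in LPS and torin1 as well. Dusp16 passed at 0.18 (SE 0.09, adjusted p = 0.11) in LPS and 0.22 (SE 0.09, adjusted p = 0.059) in LPS and torin1, and Dusp6 at 0.48 (SE 0.11, adjusted p = 0.0014) in control and 0.22 (SE 0.10, adjusted p = 0.068) in LPS. Dusp4 was the gene that passed as lower, by −0.19 (SE 0.13, adjusted p = 0.24) in LPS and torin1, and its lysates ranged from −0.41 to 0.34 in control.

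Translation efficiency, the change of polysome-associated mRNA beyond that of total mRNA, was tested through an interaction term of treatment with RNA type. None of the 7 genes passed for LPS against control, for LPS and torin1 against LPS or for LPS and torin1 against control, and in edgeR no gene of the table did (0% in each). An unadjusted p under 0.05 was reached by 44, 110 and 145 of the 11243 genes. DESeq2 called 1, 13 and 1 genes and the analysis of partial variance 10, 21 and 14, none of them a phosphatase described here. Without experiment 2, edgeR called 430 genes for LPS and torin1 against control, again none of the 7. The interaction of the 7 genes lay between −0.23 (Dusp6, log2, SE 0.77) and 0.11 (Dusp16, SE 0.27) for LPS, and between −0.23 (Dusp5, SE 0.35) and 0.04 (Dusp16, SE 0.26) for torin1 against LPS. With the lysate as a block the SE narrowed to 0.15 for Dusp6 under LPS, with a value of −0.26, and to 0.17 for Dusp5 under torin1, with a value of −0.26. The fit without the block does not use the pairing of lysates. Its SE ranged from 0.22 for Dusp3 to 0.97 for Dusp1 among the 7 genes. Changes of translation efficiency within such errors were not detectable in that fit, and changes larger than their SE could also fail to pass. Within experiments 1, 2 and 3, the Dusp1 difference under LPS was −0.09, 0.06 and −0.01.

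Dusp6 was the gene whose lysates were ordered by treatment. Its polysome-associated mRNA exceeded its total mRNA by 0.66, 0.29 and 0.52 (log2) in the control lysates, by 0.26, 0.22 and 0.19 with LPS and by −0.01, 0.13 and 0.19 with LPS and torin1. The 3 treatments did not overlap, with LPS below control and torin1 narrowly below LPS. The lowest LPS lysate stood at 0.193 and the highest torin1 lysate at 0.186, both of experiment 3. With the lysate as a block, the edgeR interaction for torin1 against LPS was −0.12 (SE 0.14, adjusted p = 0.99). Groups that did not overlap in the lower direction occurred in 2.97% of all genes for LPS against control and in 4.54% for torin1 against LPS. The share of genes with all 3 treatments in this order was not computed.

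**Figure D3:**
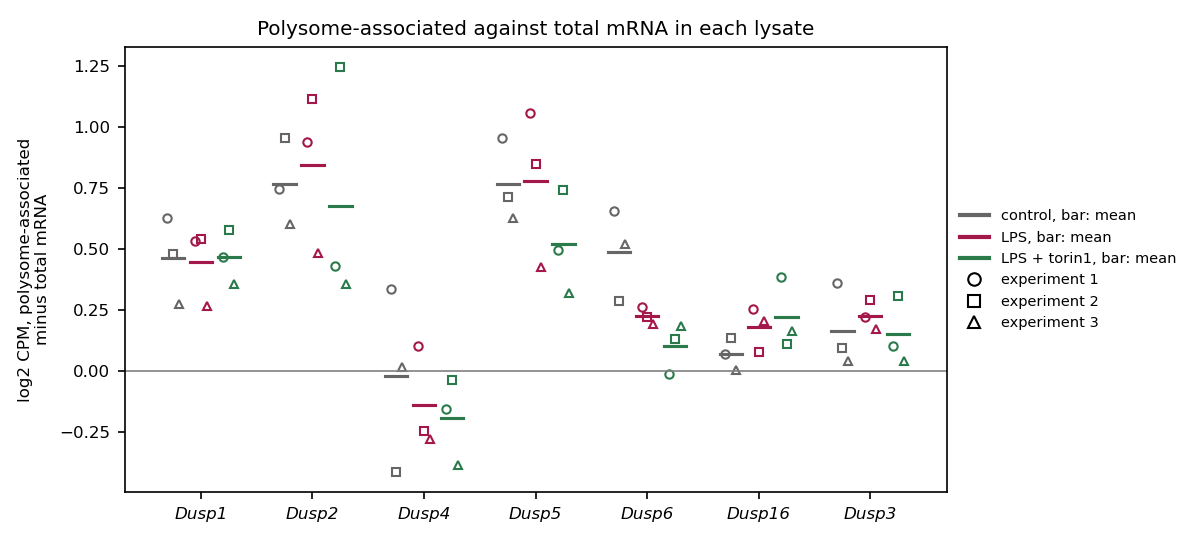
Log2 CPM of polysome-associated minus total mRNA (y axis) in each of the 9 lysates, by gene and treatment, with symbols for the experiments and bars for means. Dusp1, Dusp2, Dusp3, Dusp5 and Dusp16 lie above 0 in all 9 lysates, Dusp4 lies on both sides of 0, and the 3 treatments of Dusp6 do not overlap.

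Part of the spread within treatments followed the experiment number. Dusp1 was highest in experiment 1 and lowest in experiment 3 in 6 of 6 combinations of treatment and RNA type, with deviations from the group mean of 0.72 to 1.43 (log2) in experiment 1 and of −1.25 to −0.61 in experiment 3. Dusp6 went another way and was lowest in experiment 1 in 6 of 6 combinations, by −1.13 to −0.34, and highest in experiment 2. Dusp2 was highest in experiment 1 in 5 of 6 combinations and Dusp4 lowest in experiment 3 in 6 of 6. Dusp16 and Dusp3 stayed within −0.36 and 0.37 of their group means. The 2 RNA types of a lysate share its cells, so the 6 combinations of an experiment stand for 3 lysates.

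**Figure D4:**
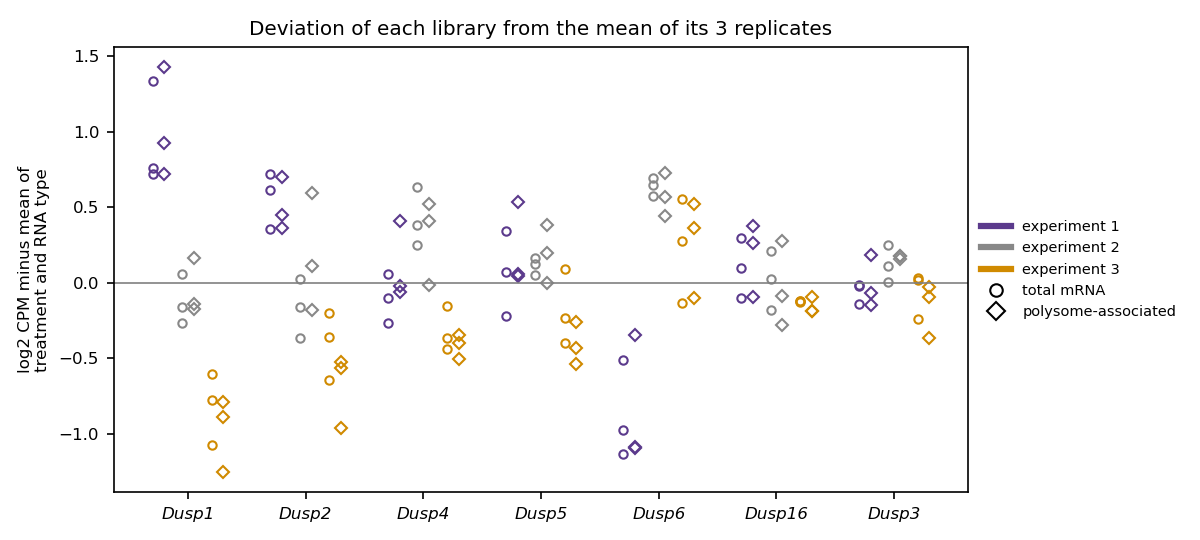
Deviation of log2 CPM of each library from the mean of its treatment and RNA type (y axis), by gene and coloured by experiment, with circles for total and diamonds for polysome-associated mRNA. Dusp1 lies above 0 in experiment 1 and below 0 in experiment 3 in all libraries, and Dusp6 lies below 0 in all libraries of experiment 1.

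Across the 9 total mRNA libraries, the genes whose log2 CPM were most like each induced phosphatase were found among 10314 genes with at least 10 counts in every library. Dusp16 was most like Tnfaip3, the gene of the NF-kB feedback protein A20, with Pearson r = 0.997, and like Bcl2a1b (0.997) and Selk (0.995). Dusp5 was most like Hk2 (0.989), the gene of hexokinase 2, Tirap (0.988), the gene of a Toll-like receptor adaptor, and Cmtr1 (0.986). Dusp2 was most like Etv6 (0.986), Nupr1 (0.975) and Psmc5 (0.973), and Dusp4 like Rusc2 (0.985), Ppp2r5b (0.983) and Slc2a6 (0.982). Dusp6 was most like Frmd4a (0.977), Ppap2a (0.975) and Sema6d (0.968), and Dusp1 like Rnf11 (0.973), Tm2d1 (0.970) and Dnajc21 (0.970). Among the phosphatases themselves, r in total mRNA was highest for Dusp2 with Dusp5 (0.884) and lowest for Dusp2 with Dusp3 (−0.49). The 9 libraries share 3 treatments and 3 experiments, so these values are descriptions of the same treatment pattern.

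The other genes of the pathway were counted by list, and their counts stand beside 32.2% of all genes higher and 34.3% lower with LPS in total mRNA, and 26.4% higher and 28.7% lower in polysome-associated mRNA. Of 12 other dual-specificity phosphatases in the table, 2 rose and 6 fell with LPS in total mRNA and 1 rose and 4 fell in polysome-associated mRNA, with a median log2 difference of −0.50 in total mRNA beside −0.02 over all genes. Dusp7, a cytoplasmic ERK phosphatase, rose by 0.67 (SE 0.31, edgeR adjusted p = 0.10) in total mRNA, and again by 0.63 (SE 0.31, adjusted p = 0.15) under torin1 against LPS. Dusp11, an RNA phosphatase, rose by 0.66 (SE 0.14, adjusted p = 0.0044) in polysome-associated mRNA. Dusp9 fell by 1.11 on the log2 scale (SE 0.56, adjusted p = 0.13) in total mRNA at 0.324 CPM in control, and Dusp14 fell by 0.81 (SE 0.34, adjusted p = 0.093) in polysome-associated mRNA.

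Of 8 tyrosine and serine/threonine phosphatase genes that act on MAP kinases, 6 rose and 1 fell with LPS in total mRNA, with a median of 0.36 (log2), and 5 rose and 1 fell in polysome-associated mRNA. Ptpn5, the gene of a tyrosine phosphatase of ERK and p38, rose by 1.11 (log2, SE 0.35, edgeR adjusted p = 0.024) in total mRNA, to 5.30 CPM, and fell by 3.82 (SE 0.43, adjusted p = 0.00027) under torin1, to 0.375 CPM. Ptpn7, the gene of a tyrosine phosphatase of blood cells, rose by 0.88 (SE 0.17, adjusted p = 0.0032) in polysome-associated mRNA and fell by 1.09 (SE 0.18, adjusted p = 0.0035) under torin1. Ppm1d, the gene of a serine/threonine phosphatase of p38, fell by 0.81 (SE 0.12, adjusted p = 0.00043) in total and by 0.83 (SE 0.17, adjusted p = 0.0041) in polysome-associated mRNA. The rises in total mRNA other than those of Ptpn5 and Ptpn7 were 0.15 to 0.38 (log2). They were similar in size to or smaller than the −0.37 by which library totals moved the median gene.

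Among the kinases, 3 of 10 MAP kinase genes rose and 2 fell with LPS in total mRNA, with a median of −0.00 (log2), and 2 rose and 2 fell in polysome-associated mRNA. Mapk11, which encodes p38 beta, rose by 0.87 (SE 0.17, edgeR adjusted p = 0.0017), and Mapk9, which encodes JNK2, fell by 0.51 (SE 0.09, adjusted p = 0.0010) in total mRNA. Of 20 MAP2 and MAP3 kinase genes, 6 rose and 5 fell in total mRNA, with a median of 0.04, and 5 rose and 5 fell in polysome-associated mRNA. Map3k8, which encodes the kinase Tpl2 that links Toll-like receptors to ERK, rose by 2.05 (SE 0.18, adjusted p = 1.1e-05) and fell by 0.67 (SE 0.17, adjusted p = 0.014) under torin1 in total mRNA. Map3k4 fell by 1.07 (SE 0.08, adjusted p = 6.0e-06) in total and Map3k6 by 1.49 (SE 0.30, adjusted p = 0.0034) in polysome-associated mRNA.

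Of 8 genes of kinases that MAP kinases activate, 4 rose and 2 fell with LPS in total mRNA, with a median of 0.15 (log2), and 2 rose and 2 fell in polysome-associated mRNA. Mapkapk2, which encodes the p38 target MK2, rose by 1.38 (log2, SE 0.17, edgeR adjusted p = 0.00018) in polysome-associated mRNA. Rps6ka2 rose by 1.39 (SE 0.59, adjusted p = 0.080) in total mRNA, and Rps6ka5, which encodes the kinase MSK1, fell by 2.19 (SE 0.17, adjusted p = 6.2e-06) in total and by 2.39 (SE 0.31, adjusted p = 0.00022) in polysome-associated mRNA. Under torin1 against LPS in total mRNA, 3 of the 8 rose and 3 fell, beside 27.3% of all genes higher and 26.4% lower. There Rps6ka2 rose by 2.74 (SE 0.57, edgeR adjusted p = 0.0060) and Rps6ka5 by 1.36 (SE 0.17, adjusted p = 0.00050). Of 14 output and feedback genes of ERK, 7 rose and 3 fell with LPS in total mRNA, with a median of 0.40, and 6 rose and 3 fell in polysome-associated mRNA. Phlda1 rose by 5.28 (SE 0.25, adjusted p = 3.7e-07), and Etv5, which encodes an ETS transcription factor, fell by 1.81 (SE 0.20, adjusted p = 5.6e-05) in total mRNA. Under torin1 against LPS, 5 of the 14 rose and 7 fell in total mRNA, with a median of −0.38 beside 0.00 over all genes. For LPS against control, the named genes of these lists kept their direction when libraries were scaled by totals or by DESeq2's size factors. Rescaled values of their torin1 differences are not given here.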

How the data were processed

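The authors treated RAW264.7 cells, made stranded libraries after ribosomal RNA removal, processed paired-end reads with the Nextflow RNAseq pipeline (version 1.3), aligned them to GRCm38 with Hisat2, and summarised them by gene in featureCounts on Ensembl models. They retained protein-coding genes that had at least 1 count in each library. What they deposited are raw counts, with no normalization, of 11243 genes in 18 libraries of 27800983 to 47725557 counts each. Taken over all genes together, counting error is small beside the spread between replicates. It weighs more in genes with few counts, such as Dusp9 at 0.324 CPM in control total mRNA. Ptpn5, at 0.375 CPM in total mRNA with LPS and torin1, is another.

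Tests were run in edgeR 4.0.16 under R 4.3.3 (TMM, quasi-likelihood, Benjamini-Hochberg over all genes), with 1 model of 9 libraries for each RNA type and 1 model of 18 libraries for polysome-associated against total mRNA and for translation efficiency. The thresholds, a false discovery rate of 0.25 and for translation efficiency a fold of 1.2, are the study's. The study's tool anota2seq was not used here, and its analysis of partial variance was rewritten with limma 3.58.1 as an alternative. DESeq2 1.42.0 was another. The tests were tried on simulated data with a log2 change of 2 planted in 200 genes and no experiment or lysate effect. They recovered 91% to 98.5% of these genes. For LPS in total mRNA, 50 of 243 edgeR calls and 99 of 292 DESeq2 calls were unchanged genes. In polysome-associated mRNA these were 46 of 243 and 127 of 322. For polysome-associated against total mRNA in control, edgeR had 82 of 279. Smaller changes were not simulated.

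Each library has a treatment, an RNA type and an experiment number in the labels. Deviations from group means correlated with a mean r of 0.33 (lowest −0.10, 18 pairs) between treatments of the same number and RNA type, −0.16 between other numbers, and 0.51 (lowest 0.42, 9 pairs) between RNA types of a lysate. The lysate pairing is thus in the design and the methods, whereas over all genes the number links treatments more loosely. Among the phosphatases, Dusp1 was highest and Dusp6 lowest in experiment 1 in 6 of 6 combinations of treatment and RNA type. Values blocked on the number are printed beside a result whose call they change. No 2 libraries agreed within sampling noise.

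The 7 genes and all lists were chosen with earlier results of these data known. Every one of the 7 is named. From each other list, the gene with the largest rise and that with the largest fall under LPS are named per RNA type, along with the 3 genes most correlated with each induced phosphatase. The kinase gene Map3k20 was matched under its older symbol Zak. Gene positions and 3′ UTRs are from GENCODE vM21 (GRCm38), and promoter windows from RefSeq. Lengths are unions of annotated exons.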

Additional observations from a re-analysis of the deposited data

How the results depend on the processing

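For the single phosphatase genes, 68 results had 701 values from the replicate block, DESeq2, its size factors in edgeR, library totals, a minimum of 10 counts in 3 libraries (11218 genes), each experiment left out, a false discovery rate of 0.05, models of fewer or of all libraries, and the analysis of partial variance. Of these values 647 kept their direction and their side of the threshold, 27 no longer passed, 22 newly passed and 5 turned direction. The cause was not tested, beyond the loss of libraries where an experiment was left out. The LPS rises of Dusp1, Dusp2, Dusp4, Dusp5, Dusp6 and Dusp16 passed in both RNA types under each of the 11 alternatives run on them. None of the 5 values that turned had passed before. With 1 experiment left out, Dusp3 under LPS in polysome-associated mRNA ranged from −0.19 to 0.11 (the latter without experiment 1), Dusp2 in polysome-associated mRNA of LPS and torin1 against control from −0.15 (without experiment 2) to 0.61, and Dusp4 in polysome-associated against total mRNA of control from −0.23 to 0.21 (without experiment 2). In the analysis of partial variance, the translation efficiency of Dusp16 was −0.87 under LPS and that of Dusp5 was 0.30 under torin1 against LPS.

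With 1 experiment left out, torin1 against LPS called 3 (without experiment 3) to 5 of the phosphatases in total mRNA. Polysome-associated against total mRNA called 1 to 2 in control, 1 to 2 in LPS and 0 to 2 in LPS and torin1, lowest without experiment 2 each time. Over all genes, torin1 against LPS had 3959 (without experiment 3) to 5385 calls in total mRNA and 1187 (without experiment 3) to 5182 in polysome-associated mRNA. In polysome-associated mRNA, LPS had 3901 (without experiment 1) to 7251 calls, and LPS and torin1 against control 4156 (without experiment 3) to 7627. Translation efficiency of LPS and torin1 against control had 0 to 430 calls, the latter without experiment 2.

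At a false discovery rate of 0.05, 3279 genes passed for torin1 against LPS in total mRNA, with 3 of the phosphatases among them. In polysome-associated mRNA, 3654 passed for LPS, 1557 for torin1 against LPS and 3950 for LPS and torin1 against control. For polysome-associated against total mRNA, 4841 passed in LPS and 3481 in LPS and torin1, with 1 phosphatase in control, 1 in LPS and 0 in LPS and torin1.

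With the lysate as a replicate block, polysome-associated against total mRNA called 5 of the phosphatases in control, 6 in LPS and 6 in LPS and torin1, beside 8991, 8647 and 7926 of the 11243 genes. Translation efficiency with the block had 25 calls for torin1 against LPS and 3 for LPS and torin1 against control, none of them a phosphatase described here. DESeq2 called 1, 13 and 1 genes there for LPS, torin1 against LPS, and LPS and torin1 against control, and the analysis of partial variance 10, 21 and 14. Between treatments, the block on the experiment number changed the calls of Dusp1, Dusp2 and Dusp6 given above and of no other phosphatase.

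With 3 experiments a treatment, a difference within the standard error of a fit was not detectable in that fit. A difference larger than its standard error could also fail to pass. The translation efficiency of Dusp6 under LPS with the lysate block, at −0.26 (SE 0.15), did not pass. Errors of translation efficiency given without the lysate block do not use the pairing of lysates.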
